A study of Mus musculus with 8 samples.

Results

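The TEAD factors and their cofactors are described in mouse myofibroblastic hepatic stellate cells. They comprise the 4 TEAD transcription factors (Tead1 to Tead4), the coactivators YAP (Yap1) and TAZ (Wwtr1), and the 4 vestigial-like cofactors (Vgll1 to Vgll4). The members were taken by gene symbol from per-library tables of RNA levels, where they were 10 of 40840 genes, and all 10 were present. RNA was sequenced from 8 cultures of primary myofibroblastic hepatic stellate cells, called pMF-HSCs, in 2 groups of 4. In the healthy liver, stellate cells store vitamin A, and on plastic they become myofibroblasts that secrete collagen. The comparison asked which RNAs changed when O-GlcNAc transferase (OGT), the enzyme that attaches the sugar O-GlcNAc to proteins, was inhibited.

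All cells came from wild-type C57BL/6J male mice aged 15 to 18 weeks, were sorted by the autofluorescence of retinol, and were cultured for 7 days in DMEM with fetal bovine serum. The control group received the vehicle DMSO and the OGTi group received the OGT inhibitor OSMI-1 at 50 µM, both for 24 h. Each of the 4 replicate numbers held 1 control and 1 OGTi culture from an independent experiment. A single inhibitor at a single dose and time was used, so that its action on OGT and any other action of the compound cannot be told apart. In bulk samples such as these, fewer cells of a type and less RNA per cell cannot be told apart either.

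TEAD proteins bind DNA but activate transcription weakly alone. YAP and TAZ do not bind DNA themselves and act by binding TEADs. The Hippo kinases phosphorylate YAP and TAZ and thereby hold them in the cytoplasm, while a stiff substrate favours their entry into the nucleus. Vestigial-like proteins bind the same TEADs, and VGLL4 is known to compete with YAP for them. In stellate cells, YAP activity is known to accompany the change to myofibroblasts.

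Total expected counts lay between 30068876 and 37372420 per library. All 13 stellate and myofibroblast markers reached 1 TPM (a transcript level scaled by gene length and depth). Their summed level was 8059 to 16004 TPM in the control libraries and 6785 to 16548 TPM in the OGTi libraries. In TPM, 4 of the 13 were lower in every OGTi library than in any control library, 0 were higher in every one, and 9 overlapped. Over all genes tested, TPM did not overlap between the groups in 27.0%, with 20.1% lower and 6.88% higher in OGTi. The 4 markers were Des, Hand2, Pdgfrb (56.3 to 171 TPM in control and 10.9 to 37.4 TPM in OGTi cultures) and Lrat, the enzyme that esterifies retinol (6.51 to 18.0 TPM in control and at most 2.94 TPM in OGTi cultures). Read by pair, 9 of the 13 were lower in OGTi in 4 of 4 pairs, namely those 4 with Lhx2, Dcn and the collagen genes Col1a1, Col1a2 and Col3a1. The share of all genes lower in 4 of 4 pairs was not computed, so this count has no background beside it. TPM ran lower in OGTi over all genes, with median log2 fold changes of -0.10 and -0.23 in fits on log2(TPM + 1) and log2(TPM + 0.1). Dcn differed little in pair 3 (7090 TPM in control and 7075 TPM in OGTi). Acta2 and Reln were lower in 3 of 4 pairs, and Tagln and Timp1 were higher in 3 of 4. Summed markers of hepatocytes (at most 1.67 TPM), endothelial cells (at most 1.55 TPM), mesothelial cells (at most 2.32 TPM) and keratinocytes (at most 1.21 TPM, with Krt5 and Krt14 at 0) were near 0. Within them, Cyp2e1 of the hepatocyte list was higher in every OGTi library (0.36 to 1.2 TPM) than in any control library (0.03 to 0.08 TPM), and Lyve1 of the endothelial list was lower in every one (0 to 0.17 against 0.21 to 0.68 TPM). The 6 macrophage markers summed to 17.9 to 37.3 TPM in control and 32.9 to 71.6 TPM in OGTi libraries. Most of this was Cd68, a lysosomal protein, at 11.0 to 32.3 TPM in control and 25.4 to 69.4 TPM in OGTi libraries, higher in 4 of 4 pairs. Csf1r was at 2.22 to 6.66 TPM over all 8 libraries, the Kupffer cell gene Cd5l ranged from 0 to 6.21 TPM, and Adgre1, Clec4f and Ptprc did not exceed 0.96 TPM. The 5 cholangiocyte markers summed to 306 to 653 TPM in control and 125 to 551 TPM in OGTi libraries, mostly through Krt19 and Spp1. Krt19 was lower in every OGTi library (46.5 to 72.9 TPM) than in any control library (85.1 to 139 TPM). Krt7 reached 5.05 TPM and Cldn4 1.96 TPM, both in OGTi replicate 2, and Epcam did not exceed 0.79 TPM. The part of these marker differences in the results below was not tested.

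A pair of libraries stood apart from their groups. Genes with a mean of at least 1 CPM (counts scaled to the library total) in the group were read. In control replicate 4, 11.6% of 12410 genes were at or below 0.5 times the mean of the other 3 controls, against 1.35% to 4.06% in those controls. In OGTi replicate 1 the share was 18.3% of 12303 genes, and the remaining OGTi libraries had 3.15% to 9.46%. For the members below, values without these libraries are given where the call, the sign or the size moved.

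The sequence just upstream of the start site was read for members whose levels are set against each other below: Wwtr1, which rose, Yap1, its paralog, which was not called, Tead2, which fell, and Vgll3, the most abundant member. RefSeq windows on GRCm38.p6 were at hand for 8 of the 10 members (all but Tead1 and Tead4), in 11 windows of 250 bases. The 6-base TEAD motif CATTCC, which reads GGAATG on the other strand, is in capitals. Wwtr1 is shown for its outermost start, whose window overlaps that of its other start.
Wwtr1, chr3:57575911-57576160, minus strand: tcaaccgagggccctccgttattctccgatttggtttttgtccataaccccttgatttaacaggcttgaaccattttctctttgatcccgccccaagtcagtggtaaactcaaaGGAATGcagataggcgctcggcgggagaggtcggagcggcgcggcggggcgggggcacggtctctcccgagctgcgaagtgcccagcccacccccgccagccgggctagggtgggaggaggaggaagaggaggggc
Yap1, chr9:8004597-8004846, minus strand: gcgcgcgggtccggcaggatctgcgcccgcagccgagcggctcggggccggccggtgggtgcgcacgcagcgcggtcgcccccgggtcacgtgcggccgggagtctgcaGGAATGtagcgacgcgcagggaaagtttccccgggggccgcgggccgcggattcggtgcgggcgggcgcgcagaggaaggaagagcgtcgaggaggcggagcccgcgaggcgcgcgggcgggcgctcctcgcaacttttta
Tead2, chr7:45215542-45215791, plus strand: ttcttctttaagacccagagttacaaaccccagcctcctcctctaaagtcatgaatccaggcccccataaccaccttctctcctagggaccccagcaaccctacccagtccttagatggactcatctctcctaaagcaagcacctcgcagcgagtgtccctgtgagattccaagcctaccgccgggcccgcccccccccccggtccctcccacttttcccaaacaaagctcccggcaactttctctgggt
Vgll3, chr16:65814939-65815188, plus strand: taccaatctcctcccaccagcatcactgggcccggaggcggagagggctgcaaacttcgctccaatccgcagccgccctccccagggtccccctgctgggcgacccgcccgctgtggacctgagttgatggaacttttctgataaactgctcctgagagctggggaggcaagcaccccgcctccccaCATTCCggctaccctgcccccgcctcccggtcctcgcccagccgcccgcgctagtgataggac
Wwtr1, Yap1 and Vgll3 each held 1 match, which began at positions -136, -141 and -63 from the start (the last base upstream is -1), and Tead2 held 0. Across the members, 6 of 8 had the motif in at least 1 window, and 14.4% of the 27025 gene symbols in the whole table did. By window the counts were 8 of 11 members' windows and 12.6% of 32851 windows. Both Wwtr1 windows hold the same match, and a match describes the letters only.

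In the control cultures, Vgll3 was the most abundant member, at 49.4 ± 20.6 TPM (SD, n = 4). It was followed by Wwtr1 (15.8 ± 5.32 TPM), Yap1 (11.8 ± 0.982 TPM), Vgll4 (11.4 ± 1.04 TPM), Tead1 (7.12 ± 0.984 TPM), Tead2 (6.86 ± 2.35 TPM), Tead4 (2.45 ± 1.26 TPM) and Tead3 (1.24 ± 0.407 TPM). In that order, the ranges over the 4 control libraries overlapped for Wwtr1 and Yap1, Yap1 and Vgll4, Tead1 and Tead2, and Tead4 and Tead3. Vgll3 and Wwtr1 touched without overlapping, at a lowest Vgll3 level of 21.41 TPM and a highest Wwtr1 level of 21.36 TPM. Vgll1 and Vgll2 were at 0 in every control library.

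In OGTi cultures the order was Vgll3 (46.4 ± 14.4 TPM), Wwtr1 (32.1 ± 4.09 TPM), Vgll4 (10.5 ± 3.45 TPM), Yap1 (7.15 ± 1.55 TPM), Tead4 (6.14 ± 0.849 TPM), Tead1 (3.26 ± 0.705 TPM), Tead2 (1.58 ± 1.45 TPM) and Tead3 (0.870 ± 0.351 TPM). Tead4 thus stood above Tead1 and Tead2, and the ranges of Tead4 and Tead1 did not overlap. Wwtr1 and Vgll4 did not overlap either, whereas all other neighbours in this order did.

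**Figure D1:**
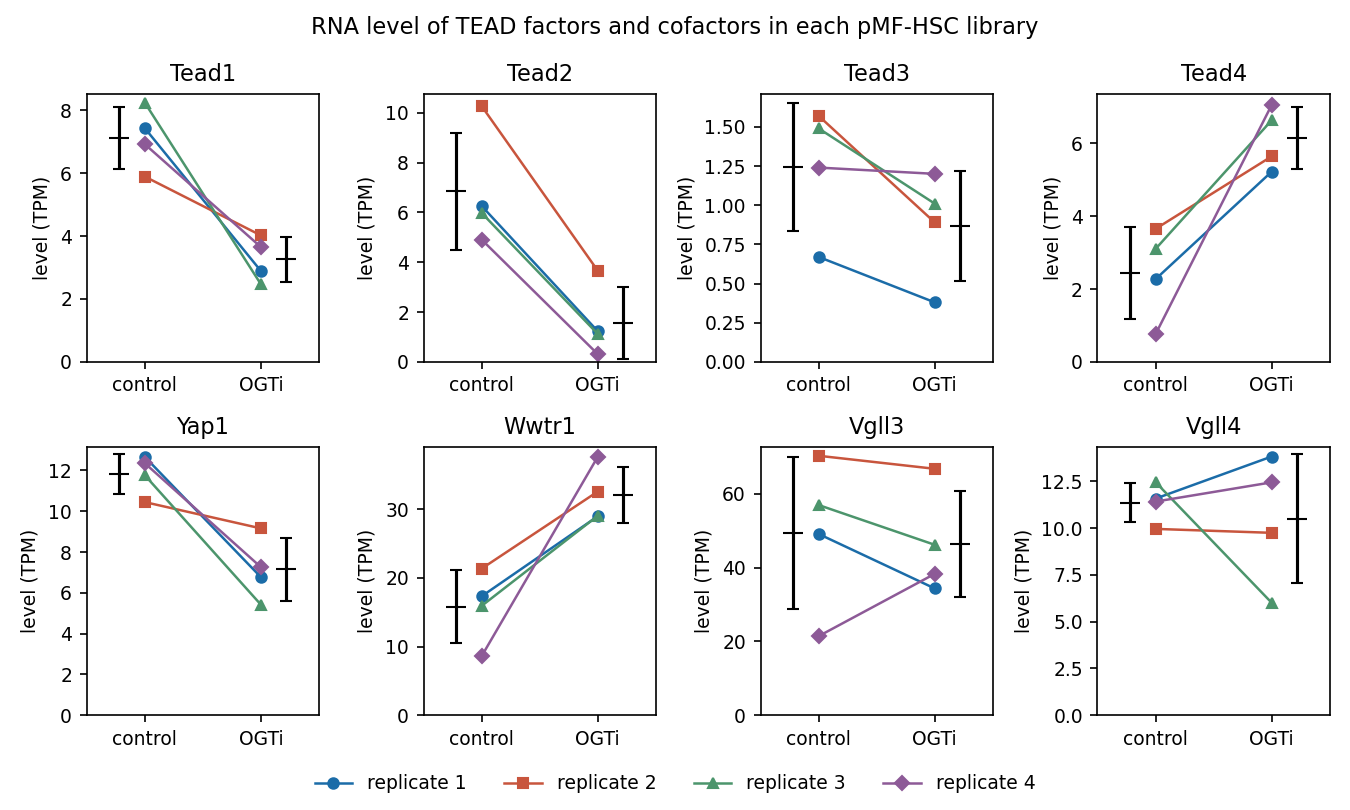
Level in TPM (vertical axes, from 0) of the 8 detected members in control and OGTi cultures, with 1 line per replicate number and the mean ± SD of 4 libraries beside it. Tead1, Tead2 and Yap1 sit lower in every OGTi library than in any control library, Tead4 and Wwtr1 sit higher in every one, and Tead3, Vgll3 and Vgll4 overlap.

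Of the 8 members tested, 4 passed the test: Tead4 and Wwtr1 rose, and Tead1 and Tead2 fell. Over all 19963 genes tested, the share that passed was 18.4%, made up of 8.13% that were higher and 10.2% that were lower in OGTi cultures. The test was edgeR's quasi-likelihood test blocked on the replicate number, and a gene was called where the p adjusted after Benjamini-Hochberg did not exceed 0.05. The values of the 2 groups did not overlap for 5 of the 8, the 4 called members and Yap1, and 23.5% of all genes tested had groups that did not overlap. The median log2 fold change was -0.01 over the 8 and 0.01 over all genes tested. The counts below are scaled by TMM, edgeR's correction for library composition, to a common depth.

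Tead1, a widely expressed TEAD (chr7:112278522-112506014, plus strand, GRCm39), stood at 1484, 1179, 1592 and 1362 scaled counts in control replicates 1 to 4 and at 836, 867, 619 and 879.9 in the OGTi replicates. Every OGTi library lay below every control library. The log2 fold change was -0.82 ± 0.23 (SE, n = 4 pairs, 95% interval -1.33 to -0.30, edgeR adjusted p = 0.0342), lower in 4 of 4 pairs. Leaving out any 1 of the 4 pairs ended the call, with edgeR adjusted p between 0.0537 and 0.215.

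Tead2 (chr7:44865172-44883071, plus strand), the TEAD best known from early embryos and neural progenitors, fell most on the log2 scale among the members. It stood at 230.2, 377, 212 and 177 scaled counts in the controls and at 64.5, 145, 50.8 and 13.8 in the OGTi libraries. The groups did not overlap, and replicate 2 was the highest library of both. On the log2 scale the change was -2.15 ± 0.37 (95% interval -2.98 to -1.31, edgeR adjusted p = 0.00383), a 4.42-fold lower level, and all 4 pairs were lower. The value in OGTi replicate 4 rested on 12 counts, with an exact Poisson interval of 6.20 to 21.0 that covers counting error only. Without replicate 4 the log2 fold change was -1.74 ± 0.32 (edgeR adjusted p = 0.0137). With OGTi replicate 1 left out and no block it was -1.83 ± 0.65, and the call was lost (edgeR adjusted p = 0.0877).

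Tead3 (chr17:28550645-28569791, minus strand), the TEAD known from placenta, had the lowest mean TPM of the TEADs in both groups. Its scaled counts were 33.0, 77.4, 70.9 and 59.7 in control and 27.7, 46.9, 62.9 and 71.2 in OGTi libraries, and the groups overlapped. The log2 fold change was -0.22 ± 0.34 (95% interval -0.97 to 0.53, edgeR adjusted p = 0.708), so that neither a fall nor a modest rise could be told from no change. Replicate 1 was the lowest library of both groups. With OGTi replicate 1 left out and no block the value was 0.00 ± 0.38, and without replicate 1 in both groups it was -0.21 ± 0.37.

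Tead4 (chr6:128201251-128277786, minus strand), the TEAD known for trophectoderm and muscle progenitors, was at 132, 212, 173 and 43.4 scaled counts in the controls. In the OGTi libraries it was at 437, 351, 480.0 and 493. The lowest OGTi value was above the highest control value. On the log2 scale the rise was 1.81 ± 0.41 (95% interval 0.90 to 2.71, edgeR adjusted p = 0.0125), 3.50-fold higher, with all 4 pairs higher. Within pairs 1 to 4 the level was 3.31-fold, 1.65-fold, 2.77-fold and 11.4-fold higher.

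Pair 4 had the largest of these folds and the lowest control value, at 45 counts (exact Poisson interval 32.8 to 60.2), or 0.243 times the mean of the other 3 controls. Among the 12410 genes with a mean of at least 1 CPM in the controls, 3.89% were at or below 0.25 times the mean of the other 3 controls in control replicate 4. Without replicate 4 the log2 fold change of Tead4 was 1.32 ± 0.31 (edgeR adjusted p = 0.0331), and with control replicate 4 alone left out and no block it was 1.38 ± 0.28 (edgeR adjusted p = 0.0110). Without OGTi replicate 1 and with no block it was 1.65 ± 0.44 (edgeR adjusted p = 0.0346).

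The makeup of the TEAD RNA changed with these shifts. Tead1 and Tead2 made up 41.5% ± 9.71 and 38.2% ± 6.96 (SD, n = 4) of the summed TEAD level in TPM in control cultures, and 27.5% ± 3.73 and 12.7% ± 9.68 in OGTi cultures. Tead4 made up 13.2% ± 5.33 in control and 52.5% ± 8.86 in OGTi cultures, or 15.7% and 50.8% without replicate 4. In the control libraries its share was 13.7%, 17.1%, 16.5% and 5.50%, and in the OGTi libraries 53.7%, 39.7%, 59.0% and 57.7%, so that Tead4 was the most abundant TEAD in every OGTi library and in 0 control libraries. Tead3 kept a similar share, 7.06% ± 2.13 and 7.25% ± 2.70. The summed level was 17.7 ± 3.21 TPM in control and 11.8 ± 1.88 TPM in OGTi libraries, and it was lower in OGTi in 4 of 4 pairs (16.63 and 9.72, 21.38 and 14.21, 18.81 and 11.23, and 13.83 and 12.21 TPM). Across pairs the groups overlapped, at control replicate 4 and OGTi replicate 2. The fall was smaller in TMM-scaled counts per kb, where the OGTi mean was 0.836 times the control mean, against 0.670 times in TPM, and where 3 of 4 pairs were lower and pair 4 was higher (264 and 287). These shares are a description and were not tested.

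**Figure D2:**
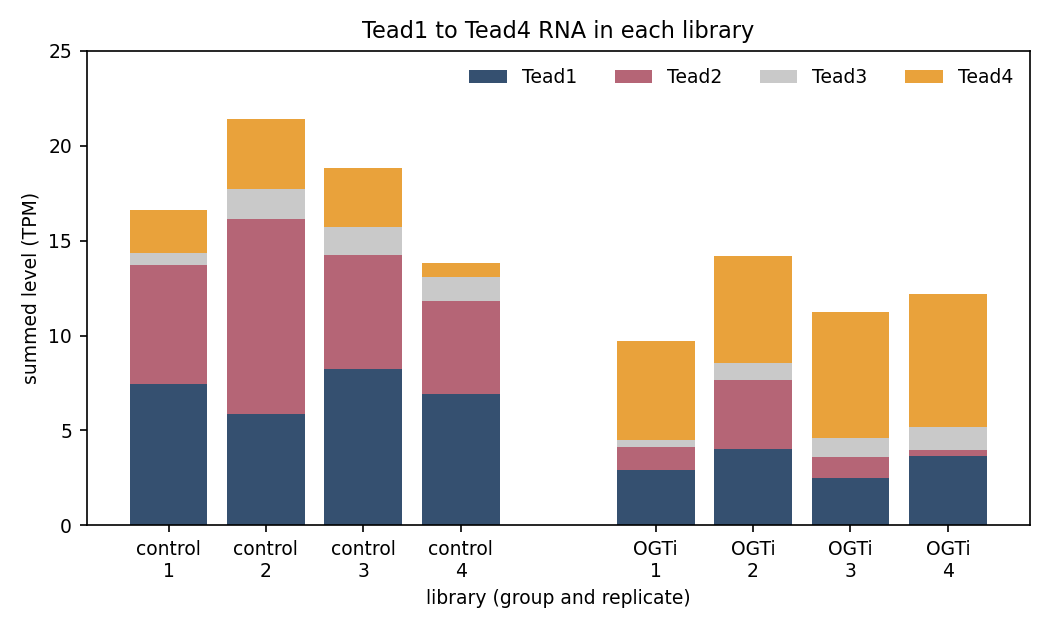
Summed level in TPM (vertical axis) of Tead1 to Tead4 in each library, with 1 bar per library and 1 colour per gene. Tead1 and Tead2 fill most of each control bar, and Tead4 takes 39.7% to 59.0% of each OGTi bar.

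Of the coactivators, Wwtr1, which encodes TAZ, rose, while Yap1 did not pass the test. Wwtr1 (chr3:57363067-57483331, minus strand) was at 1613, 1993, 1433 and 788 scaled counts in the controls and at 3907, 3271, 3389 and 4226 in the OGTi libraries. Each OGTi value was above every control value. Its log2 fold change was 1.41 ± 0.28 (95% interval 0.78 to 2.03, edgeR adjusted p = 0.00737), 2.65-fold higher, in 4 of 4 pairs. Control replicate 4 was again the lowest library, at 0.453 times the mean of the other 3 controls, and without replicate 4 the log2 fold change was 1.09 ± 0.24 (edgeR adjusted p = 0.0259).

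Yap1 (chr9:7932000-8004661, minus strand) was at 1089, 899, 978 and 1046 scaled counts in control and at 841, 846, 582 and 750.1 in OGTi libraries. The groups did not overlap and all 4 pairs were lower, yet the test did not pass: the log2 fold change was -0.42 ± 0.22 (95% interval -0.91 to 0.06, edgeR adjusted p = 0.214). Its size depended on the processing, from -0.14 ± 0.20 with the length trend removed to -0.74 ± 0.23 by limma on log2(TPM + 0.1), where the limma adjusted p was 0.0598. The abundance-weighted transcript length of Yap1 was 4364 to 4375 bases in control and 4358 to 4361 bases in OGTi libraries, a difference of few bases.

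In TPM, Wwtr1 and Yap1 lay close together in control cultures, where TAZ made up 57.8%, 67.1%, 57.5% and 41.1% of their sum. In the OGTi cultures its share was 81.1%, 78.1%, 84.3% and 83.8%. The sum itself was 27.6 ± 4.74 TPM in control and 39.2 ± 4.95 TPM in OGTi libraries, higher in 4 of 4 pairs in TPM (1.42 times) and in TMM-scaled counts per kb (1.78 times). Set over the summed TEAD level, the YAP and TAZ RNA came to 1.57 ± 0.157 in control and 3.34 ± 0.393 in OGTi libraries (SD, n = 4, not tested). RNA levels say nothing of how much YAP or TAZ protein was in the nucleus.

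Of the vestigial-like genes, Vgll3 and Vgll4 were expressed and neither passed the test. Vgll3 (chr16:65611923-65663369, plus strand) was at 6929.8, 9944, 7767 and 2973 scaled counts in control and at 7017, 10161, 8162 and 6516 in OGTi libraries. The groups overlapped, and the log2 fold change was 0.31 ± 0.23 (95% interval -0.21 to 0.83, edgeR adjusted p = 0.411). It was 0.05 ± 0.20 without replicate 4 (edgeR adjusted p = 0.901), whose control value was 0.349 times the mean of the other 3 controls, and -0.02 ± 0.23 with only control replicate 4 left out and no block (edgeR adjusted p = 0.966). In TPM the OGTi mean was below the control mean, 46.4 ± 14.4 against 49.4 ± 20.6, so the sign of the difference depended on the unit.

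Vgll4 (chr6:114837589-114946955, minus strand), the member that competes with YAP, was at 715, 619, 742 and 696 scaled counts in control and at 1262, 676, 513 and 919 in OGTi libraries. The control values lay close together, whereas the OGTi values spread on both sides of them. The log2 fold change was 0.21 ± 0.26 (95% interval -0.37 to 0.78, edgeR adjusted p = 0.644), and without replicate 1 it was 0.00 ± 0.24. The abundance-weighted length of its transcripts was 3200 to 3221 bases in control and 3179 to 3518 bases in OGTi libraries, with the longest value in OGTi replicate 3, the library with the lowest Vgll4 level.

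Vgll1 (chrX:56133466-56151900, plus strand) and Vgll2 (chr10:51898305-51906223, plus strand), a cofactor of skeletal muscle, were below the count filter. Each had 1 count in all, Vgll1 in OGTi replicate 4 and Vgll2 in OGTi replicate 1. At these depths a count of 0 allows up to 0.0803 to 0.0998 CPM (counts scaled to the library total), taken as 3 counts.

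**Figure D3:**
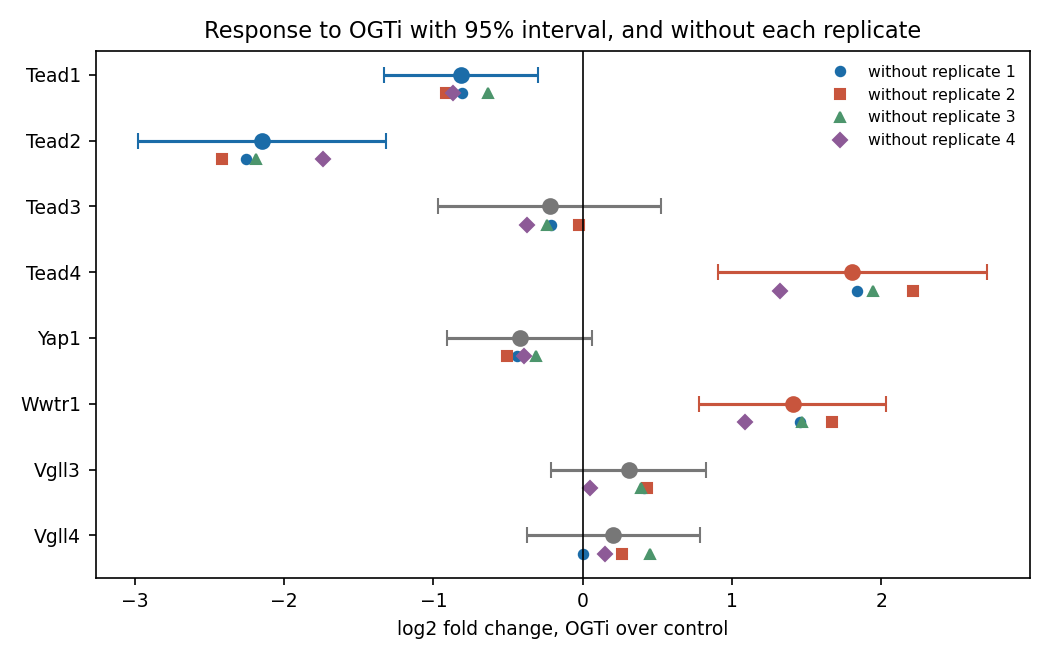
Log2 fold change of OGTi over control (horizontal axis) for the 8 members tested, with the 95% interval of the fit on all 4 pairs (bars) and the value without each replicate (small symbols below). The intervals of Tead1 and Tead2 lie below 0, those of Tead4 and Wwtr1 above 0, and leaving out replicate 4 brings Tead2, Tead4, Wwtr1 and Vgll3 nearer to 0.

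Control replicate 4 was low for some members and not for others. Against the mean of the other 3 controls it was at 0.243 for Tead4, 0.349 for Vgll3, 0.453 for Wwtr1 and 0.625 for Tead2. In the OGTi group, replicate 4 was at 0.141 and replicate 2 at 3.96 for Tead2, and replicate 3 was at 0.656 for Tead1, 0.650 for Yap1 and 0.498 for Vgll4. OGTi replicate 1 was at 0.461 for Tead3 and 1.78 for Vgll4.

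**Figure D4:**
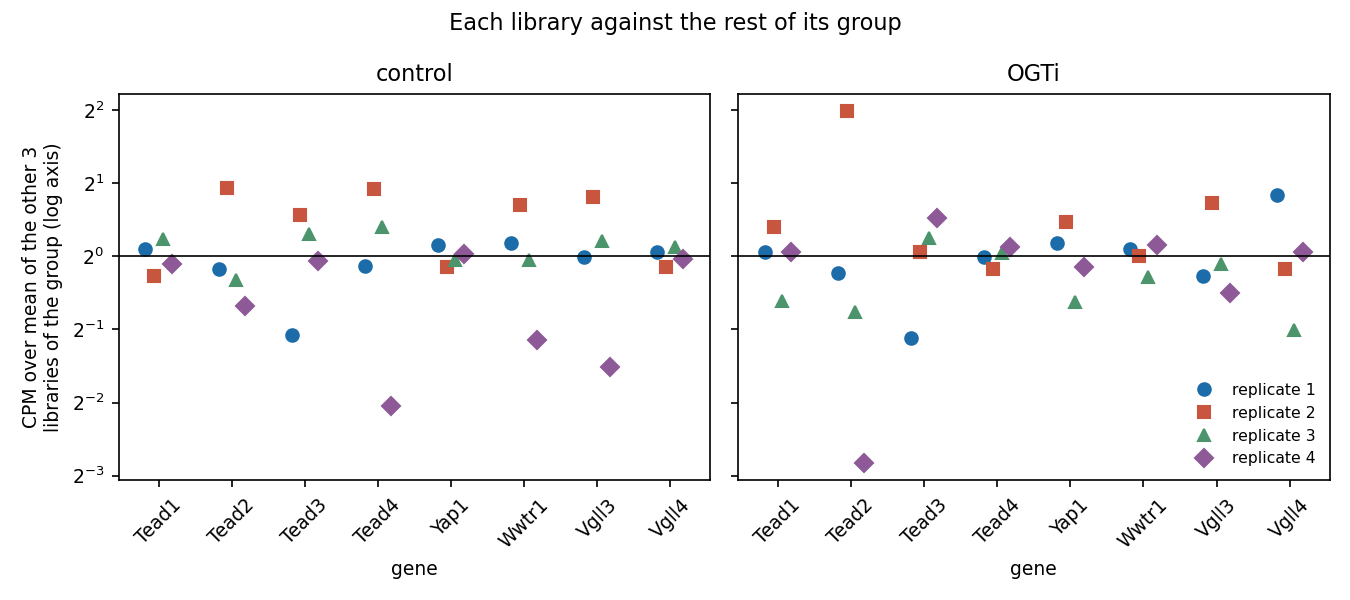
CPM of each library over the mean of the other 3 libraries of its group (vertical axis, log scale) for the 8 detected members. In control replicate 4, Tead4, Vgll3 and Wwtr1 lie at 0.243, 0.349 and 0.453, and in OGTi replicate 4 Tead2 lies at 0.141.

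Upstream of YAP and TAZ, 5 of 24 genes of the Hippo pathway passed the test, 1 higher and 4 lower, with a median log2 fold change of -0.21 against 0.01 over all genes tested. That is 20.8% of the list, near the 18.4% called over all genes. The gene that rose was Mob1b, an activating subunit of the LATS kinases, by 2.03 ± 0.30 on the log2 scale (edgeR adjusted p = 0.00177). Lower were Lats2, a kinase that phosphorylates YAP and TAZ (-0.88 ± 0.25, edgeR adjusted p = 0.0339), and Ptpn14, which binds YAP (-1.41 ± 0.28, edgeR adjusted p = 0.00742). Amotl2, an angiomotin that binds YAP (-0.92 ± 0.24, edgeR adjusted p = 0.0269), and Fat4, an atypical cadherin (-1.44 ± 0.41, edgeR adjusted p = 0.0349), were lower too. Without replicate 3 the list had 2 calls, Mob1b and Ptpn14, and without replicate 4 it had 3. Over all genes, 1905 of 19243 were called without replicate 3 and 1956 of 18735 without replicate 4, against 3666 of 19963 with all pairs.

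Among 12 genes for the turnover and cytoplasmic retention of YAP and TAZ, 1 passed the test, 8.33% of the list against 18.4% over all genes. Csnk1e, a casein kinase that takes part in the degradation of YAP, rose by 0.76 ± 0.20 on the log2 scale (edgeR adjusted p = 0.0265), a call that was lost without replicate 2, 3 or 4. The median of the list was -0.17, against 0.01 over all genes tested.

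Of 18 genes whose proteins work beside TEAD or YAP, 16 were tested (not Trp73 and Tbx5), and 5 passed, 4 higher and 1 lower, or 31.25% of those tested against 18.4% over all genes (8.13% higher and 10.2% lower). The AP-1 genes Fos (1.67 ± 0.21, edgeR adjusted p = 0.000876), Fosl1 (1.12 ± 0.22, edgeR adjusted p = 0.00623) and Junb (0.78 ± 0.22, edgeR adjusted p = 0.0332) rose. The other 4 AP-1 genes of the list did not pass: Jun (1.37 ± 0.63, edgeR adjusted p = 0.163), Fosb (1.02 ± 0.39, edgeR adjusted p = 0.0990), Jund (0.78 ± 0.33, edgeR adjusted p = 0.134) and Fosl2 (-0.29 ± 0.23, edgeR adjusted p = 0.422). Runx1, a Runt transcription factor, rose as well (1.03 ± 0.31, edgeR adjusted p = 0.0429). Smad3, a mediator of TGF-beta signalling, fell (-0.85 ± 0.23, edgeR adjusted p = 0.0268). The median of the 16 was 0.65, against 0.01 over all genes tested. Without replicate 3 or without replicate 4 the list had 2 calls, and Fos and Fosl1 kept theirs in both. Calls over all genes also fell in these settings, to 1905 of 19243 and 1956 of 18735, from 3666 of 19963.

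Known target genes of YAP and TAZ moved in both directions: 13 of 22 passed the test, 11 lower and 2 higher, with a median log2 fold change of -0.81 against 0.01 over all genes tested. The called share was 59.1%, against 18.4% over all genes, of which 10.2% were lower and 8.13% higher. This list and those above were chosen with earlier results of these data known, so the shares are a description. Lower were F3, tissue factor (-2.34 ± 0.18, edgeR adjusted p = 0.000186), Ankrd1, a nuclear ankyrin repeat protein (-1.33 ± 0.19, edgeR adjusted p = 0.00143), and Nt5e, the ectonucleotidase CD73 (-2.37 ± 0.48, edgeR adjusted p = 0.00767), along with Ptpn14. Nt5e lost its call without replicate 4 (edgeR adjusted p = 0.0517) and kept it without replicate 3 (edgeR adjusted p = 0.0155). The 2 that rose were Gadd45b, a stress-response gene (2.33 ± 0.27, edgeR adjusted p = 0.000597), and Ccn1, a matricellular protein (1.39 ± 0.21, edgeR adjusted p = 0.00185). Ccn2, a matricellular gene often used as a readout of YAP, was not called, at 0.48 ± 0.64 (edgeR adjusted p = 0.662). Amotl2, Lats2, Ptpn14 and Ajuba stand on both the target and the Hippo list. Without replicate 3 the targets had 7 calls, and without replicate 4 they had 8. F3, Ankrd1, Ptpn14, Gadd45b and Ccn1 kept theirs in both. Calls over all genes also fell in these settings, to 1905 of 19243 and 1956 of 18735, from 3666 of 19963.

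**Figure D5:**
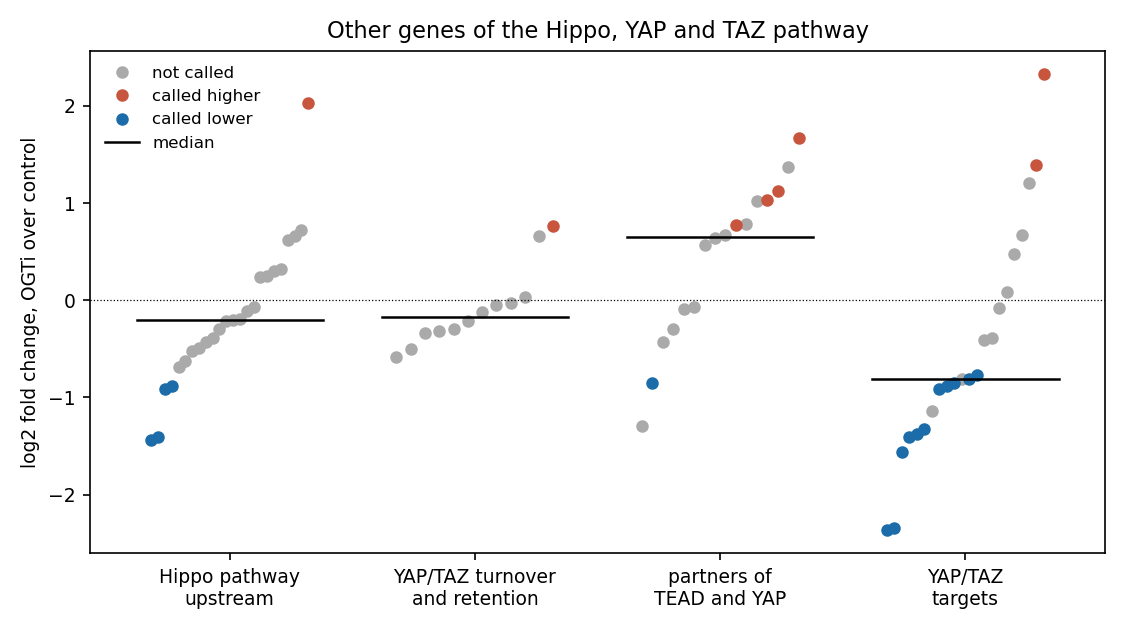
Log2 fold change of OGTi over control (vertical axis) for the tested genes of 4 lists of the pathway, sorted within each list, with calls in colour and the median as a line. The medians are -0.21, -0.17, 0.65 and -0.81, and only 2 of the 13 called targets lie above 0.

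The genes most like each called member over the 8 libraries were found among genes with a mean of at least 5 CPM by the root mean square difference of centred log2 values. For Tead1 these were Nde1 (0.124), Rbm10 (0.153) and Zfhx3 (0.157), against a median difference of 0.593 over 9680 genes. For Tead2 they were Cdk1 (0.312), Cdca8 (0.340) and Chtf18 (0.346), against a median of 1.41. For Tead4 they were Tmem120b (0.236), Fbxl15 (0.276) and Rbm38 (0.314), against 1.21. For Wwtr1 they were Mapkapk5 (0.175), Tprgl (0.183) and Zfand5 (0.185), against 0.921. Values were centred over all 8 libraries and not within groups, so the difference between OGTi and control enters this likeness. All the genes named here were themselves called in the direction of their member.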

How the data were processed

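RNA-seq was analysed from 8 cultures of pMF-HSCs, 4 control and 4 OGTi. The authors prepared stranded paired-end libraries after oligo dT enrichment, aligned the reads with Bowtie2 2.3.5.1 to GRCm39 and counted them with RSEM 1.3.1. The authors deposited 1 table per library with expected counts, which RSEM estimates and which need not be whole, TPM, scaled by the authors to gene length and depth, and an abundance-weighted gene length. GENCODE is the annotation in the study's methods, but transcripts in the tables carry RefSeq identifiers. A deposited comparison table with counts, normalized counts, fold changes and p-values from DESeq2 1.36.0 of the authors was not used.

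Here expected counts were rounded, genes with at least 10 counts over the 8 libraries were kept (19963 of 40840), and OGTi was compared with control by edgeR 4.0.16 in R 4.3.3 (TMM, quasi-likelihood test, Benjamini-Hochberg over all genes tested, called at 0.05, common biological coefficient of variation 0.343). The replicate number was a block, since the study's methods paired treatment and control of 1 replicate. Same-numbered libraries deviated together, with correlations of 0.216 to 0.437 over 12525 genes, against -0.495 to 0.290 for others. Intervals use the moderated degrees of freedom. Scaled counts, TPM, Poisson intervals (95%) and floors of 3 counts were computed per library, and intervals cover counting error only. The procedure was tested on simulated data.

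The members and lists were chosen with earlier results of these data known. All members were named, the called genes of each list up to 6 by lowest adjusted p, and the 3 genes nearest each called member (TMM-scaled, prior count 2). Ccn2, Ajuba and the AP-1 genes that did not pass were named after their values were seen. Gene positions are from GENCODE vM39 on GRCm39 and upstream windows from RefSeq on GRCm38.p6. The 18 alternatives covered DESeq2 1.42.0 (adjusted p given as NA stayed NA), other scalings and filters, no block, left-out libraries, limma 3.58.1 on log2(TPM + 1) and log2(TPM + 0.1), and removal of length and GC trends (GC known for 88.6% of genes).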

Additional observations from a re-analysis of the deposited data

Results flagged for a closer look

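Tead1 in OGTi replicate 3 stood apart from its group, at 619 scaled counts, with the nearest OGTi library at 836 and the farthest at 879.9. Its gap to the nearest library was 0.831 of the range of the group, just past Dixon's 95% critical value for 4 samples. It was 1 of 16 groups of 4 examined over the members, where chance gives about 0.8. Without replicate 3 the log2 fold change of Tead1 was -0.63 ± 0.30 and the call was lost (edgeR adjusted p = 0.215).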

How the results depend on the processing

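Tead4 and Wwtr1 passed the test in all 18 alternatives (log2 fold change 1.13 to 2.21 and 1.03 to 1.70), and Tead2 in 17. Tead2 lost its call with no replicate block and without OGTi replicate 1 (-1.83, edgeR adjusted p = 0.0877). Tead1 kept its direction in 18 and its call in 12. It was lost under upper-quartile scaling (-0.69, edgeR adjusted p = 0.0658), with the GC trend removed (-0.65, edgeR adjusted p = 0.0746) and without each replicate in turn (-0.91 to -0.63), and in those settings, as with no block and without OGTi replicate 1, 1 member was called lower (1 to 1 over the left-out replicates). Yap1, Tead3, Vgll3 and Vgll4 passed in 0 of 18, and the last 3 changed sign in 1, 3 and 2. All 40 alternatives of the TEAD shares stayed within 1 SD. The summed TEAD level in OGTi was 0.670 times that in control in TPM and 0.836 times in TMM-scaled counts per kb, a unit added after seeing the data. Over all genes, 2991 were called without the replicate block, which changed no member's call, and 2342 with control replicate 4 left out as well (1173 lower). With OGTi replicate 4 left out in its place 1191 were lower. Leaving out each pair gave 1905 to 3124 genes, 843 to 1433 higher and 1062 to 1744 lower. Limma on log2(TPM + 1) and log2(TPM + 0.1) called 3456 and 3473 lower. In either direction the limma fits called 4651 and 4709 genes, DESeq2 4859, upper-quartile scaling 3783 and library totals only 4167, against 3666 in the main fit. With no filter 4555 of 27756 were called. With no block, 3082 were called without OGTi replicate 1 and 2451 without OGTi replicate 4. Of the called genes 44.3% were higher, against 54.2% under upper-quartile scaling, 30.1% with library totals only, and 25.7% and 26.2% in the limma fits. Under those settings the all-gene median moved from 0.01 to 0.13, -0.19, -0.10 and -0.23 (log2), and to 0.12 with the GC trend removed. The Hippo list had 3 calls without the block, alone or also without control replicate 4 or OGTi replicate 4, and 2 to 5 over left-out pairs. The turnover list had 2 under DESeq2, library totals, no filter and no block without OGTi replicate 1, 3 under each limma fit, and 0 to 1 over left-out pairs. The list of partners had 9 under DESeq2, 8 under upper-quartile scaling, 3 under library totals and each limma fit, 2 without the block, 2 and 1 without the block and control or OGTi replicate 4, and 2 to 5 over left-out pairs. The targets had 7 to 12 over left-out pairs. Apart from the smaller number of samples in some settings, the cause was not tested. Depth limits Vgll1 and Vgll2, and Tead2 in OGTi replicate 4.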
